A study of Caenorhabditis elegans with 2 samples.

Results

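The 5 genes described here are *sls-2.8*, *sls-2.4*, *sls-2.2*, *sls-2.1* and *sls-2.3*, which encode SL2 spliced leader RNAs of *Caenorhabditis elegans*. They were chosen by the signal value of tagged SNPC-4 in the thresholded peak list, as the SL2 genes with the highest values, counting peaks whose summit lay within 500 bp of the annotated 5′ end. They are 5 of 19 annotated SL2 genes and of 46890 nuclear genes. Binding was measured by chromatin immunoprecipitation followed by sequencing (ChIP-seq) in whole L3 larvae of mixed sex from strain OP179, whose genotype is unc-119(ed3) III; wgIs179, where wgIs179 is the transgene for SNPC-4 carrying enhanced green fluorescent protein. The series held 2 biological replicates of this 1 group, compared with no other condition, and all tissues of the larva contributed to each value. The labels do not say whether the larvae of the replicates came from separate cultures. No read counts are in the lists, so depth is unknown.

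A spliced leader is a short piece of RNA that nematodes join to the front of many messenger RNAs by trans-splicing. SL2 is the leader mostly given to downstream genes of operons, while SL1 goes to first genes and to genes outside operons. Each SL RNA carries the leader at its 5′ end and, like spliceosomal small nuclear RNAs (snRNAs), works as a particle with Sm proteins. SNAPc, of which SNPC-4 is a component, binds a proximal sequence element in front of snRNA genes and starts their transcription.

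Upstream sequences of *sls-2.8*, *sls-2.2*, *sls-2.1* and *sls-2.3* are shown first because the summits fell in them. Each is the 100 bases before the annotated 5′ end, read 5′ to 3′ on the strand of the gene, from the RefSeq WBcel235 assembly (ce11 coordinates). The stretches are chrIII:12250365-12250464 on the plus strand for *sls-2.8*, chrII:5543498-5543597 on the plus strand for *sls-2.2*, chrII:5844765-5844864 on the plus strand for *sls-2.1* and chrII:5544274-5544373 on the minus strand for *sls-2.3*. *sls-2.14*, the SL2 gene next in signal, is shown for comparison (chrIII:11090524-11090623, minus strand). Capitals mark positions -63 to -42 from the 5′ end, where the element learnt on snRNA genes lay in *sls-2.8* and *sls-2.14*.
sls-2.8: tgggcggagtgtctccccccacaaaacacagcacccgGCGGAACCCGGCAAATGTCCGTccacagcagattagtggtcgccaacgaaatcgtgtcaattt
sls-2.2: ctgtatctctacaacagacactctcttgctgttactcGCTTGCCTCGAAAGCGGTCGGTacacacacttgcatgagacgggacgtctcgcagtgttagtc
sls-2.1: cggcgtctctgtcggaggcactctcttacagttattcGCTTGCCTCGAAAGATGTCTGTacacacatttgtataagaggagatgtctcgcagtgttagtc
sls-2.3: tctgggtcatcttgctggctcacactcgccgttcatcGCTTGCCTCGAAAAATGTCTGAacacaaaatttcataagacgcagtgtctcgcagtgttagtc
sls-2.14: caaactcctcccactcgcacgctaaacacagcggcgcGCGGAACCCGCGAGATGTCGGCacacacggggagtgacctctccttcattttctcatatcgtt

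The transcribed genes of *sls-2.8* (chrIII:12250465-12250575, plus strand), *sls-2.2* (chrII:5543598-5543707, plus strand), *sls-2.1* (chrII:5844865-5844974, plus strand) and *sls-2.3* (chrII:5544164-5544273, minus strand) are shown because the RNA sets the members apart as much as the upstream sequence. Capitals mark the leader, taken as the bases up to the first AG followed by GT after base 15.
sls-2.8: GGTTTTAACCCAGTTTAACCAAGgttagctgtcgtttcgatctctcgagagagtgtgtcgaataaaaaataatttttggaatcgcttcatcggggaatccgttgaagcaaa
sls-2.2: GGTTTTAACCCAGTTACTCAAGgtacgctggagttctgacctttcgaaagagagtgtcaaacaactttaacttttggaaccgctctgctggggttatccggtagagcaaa
sls-2.1: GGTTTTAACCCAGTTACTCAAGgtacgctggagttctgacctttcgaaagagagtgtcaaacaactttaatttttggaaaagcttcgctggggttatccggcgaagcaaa
sls-2.3: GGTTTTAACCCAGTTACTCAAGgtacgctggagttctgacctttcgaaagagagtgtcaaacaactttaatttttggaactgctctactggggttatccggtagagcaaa

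*sls-2.1*, *sls-2.2*, *sls-2.3* and *sls-2.4* encoded the same leader of 22 bases. No other SL2 gene had it: 0 of the other 14 genes, and not *sls-2.8*, whose leader had 23 bases and was shared with no other gene. Leaders found in 1 gene alone also occurred outside the members, at *sls-2.14* and *sls-2.16* among others. That of *sls-2.16* also had 23 bases. The 19 genes held 12 different leaders. The 4 genes with the common leader thus all lay among the 5 with the highest signal, and *sls-2.8*, with the highest signal of the family, was the member outside that group.

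*sls-2.8* (locus Y75B8A.38) had a signal of 1838, in an arbitrary unit, and ranked 4 of 2672 in the thresholded list made from both replicates. *sls-2.4* (R12E2.16), on I from 4172206 to 4172315 on the plus strand, had 1786 and ranked 5. *sls-2.2* (C17C3.16) had 1359 and ranked 9. These 3 genes were followed by *sls-2.1* (ZK1248.18) with 1255 at rank 13, and *sls-2.3* (C17C3.17) with 616 at rank 36. The step down from *sls-2.1* to *sls-2.3* was thus larger than any step among the first 4. Just outside the group lay *sls-2.14*, with a signal of 478 at rank 49, so that *sls-2.3* was 1.29 times and *sls-2.8* 3.85 times as high as *sls-2.14* in that list. The 12 other SL2 genes with a peak in the window ran down to 32.7 at *sls-2.19*, which is annotated as a pseudogene. These values chose the members and are not a test of anything. Across the annotation 2886 of 46890 nuclear genes (6.15%) had a thresholded summit within 500 bp of the 5′ end.

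Each replicate has its own list of 30000 regions on its own scale, so ranks are given within each. *sls-2.8* ranked 8 in replicate 1 (signal 879) and 3 in replicate 2 (signal 997). *sls-2.4* ranked 3 in replicate 1 (signal 967) and 5 in replicate 2 (signal 853). The highest signal of the family thus belonged to a different gene in each replicate. *sls-2.2* ranked 10 in replicate 1 (signal 802) and 16 in replicate 2 (signal 569), while *sls-2.1* ranked 14 (646) and 9 (622). These neighbours also changed places, so the order within the first pair and within the second pair did not hold across replicates. *sls-2.3* ranked 38 in replicate 1 (signal 311) and 36 in replicate 2 (signal 328), last of the members in both. The members ranked 1 to 5 of the SL2 genes in each replicate, although *sls-2.3* was only 1.23 times as high as the next gene in replicate 1, *sls-2.7*, and 1.27 times as high as *sls-2.14* in replicate 2. The replicate ranks differed by 1.06-fold at *sls-2.3*, from 1.56-fold to 1.67-fold at *sls-2.1*, *sls-2.2* and *sls-2.4*, and by 2.67-fold at *sls-2.8*. The median was 1.15-fold over the 88 nuclear peaks among the 100 strongest. Near the top of a list a few places make a large fold difference, so these values are not on a like footing. The ranks of the members differed by 2 to 6 places. Both replicates also entered the thresholded list, so their ranks are not independent of the choice of members.

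**Figure D1:**
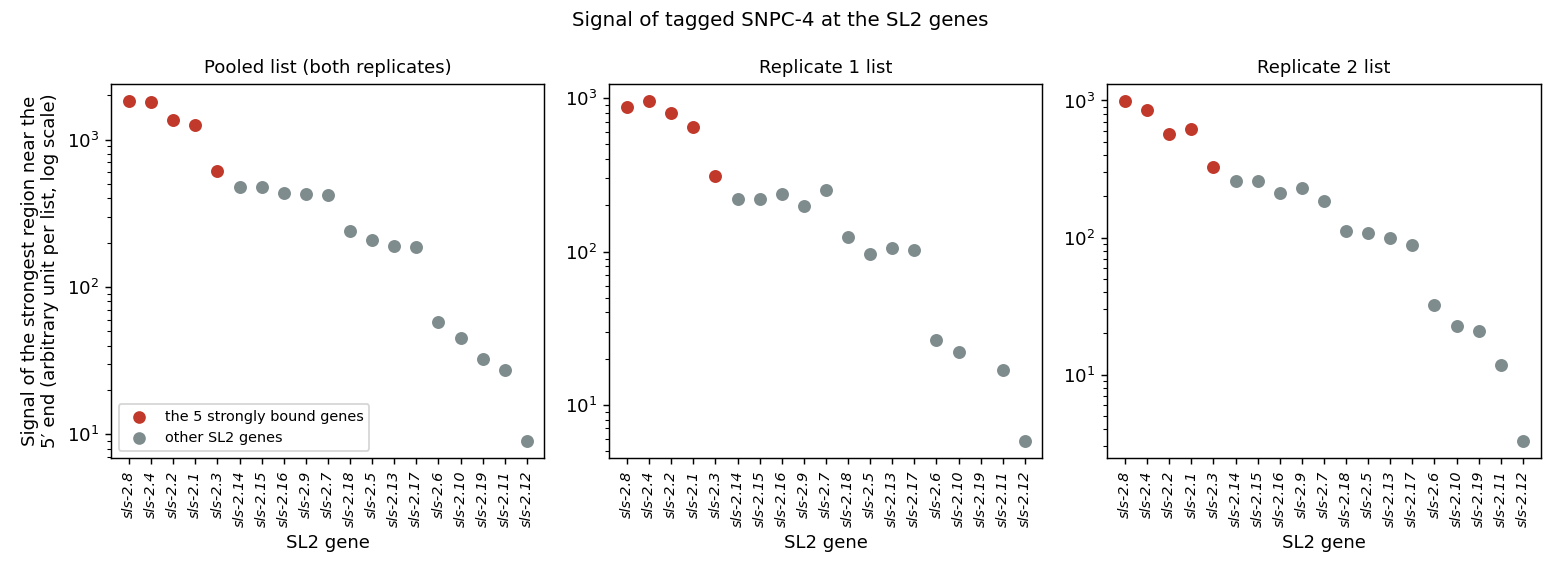
Signal of the strongest region within 500 bp of the 5′ end for each SL2 gene (points), in the pooled list and in each replicate list, on a log axis with its own scale in each panel. The 5 strongly bound genes (red) lie above the other SL2 genes (grey) in all panels, and *sls-2.3* lies nearest to them. *sls-2.15* is drawn with the region of *sls-2.14*, not with its own weaker region, and *sls-2.19* had no region in replicate 1.

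The summits lay within a few bases of each other relative to the gene. In the thresholded list the summit was at -54 bp from the 5′ end at *sls-2.8*, *sls-2.2* and *sls-2.3*, at -49 bp at *sls-2.4* and at -47 bp at *sls-2.1*. The gap between replicates was 0 bp at *sls-2.8*, 1 bp at *sls-2.3*, 3 bp at *sls-2.1*, 7 bp at *sls-2.2* and 8 bp at *sls-2.4*. The summit of *sls-2.1* lay nearest to the gene in both replicates, at -47 and -44 bp, and those of *sls-2.8* (-54 bp in both) and *sls-2.3* (-56 and -55 bp) lay farther upstream by more than the gaps of these 3 genes. *sls-2.2* (-55 and -48 bp) and *sls-2.4* (-57 and -49 bp) could not be placed apart from the others within their own gaps. At the other SL2 genes with a peak the median summit was -58 bp, within a range from -429 to -32 bp. Of these, -429 is the summit of *sls-2.14* seen from *sls-2.15*, as the strongest in its window. *sls-2.15* also had a weaker peak of its own, at -45 bp with a signal of 242 at rank 90.

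All 5 intervals were among the wider ones of the list, and 3 of them were wider still. They spanned 602 bp at *sls-2.2*, 581 bp at *sls-2.4* and 568 bp at *sls-2.1*, against 379 bp at *sls-2.8*, 313 bp at *sls-2.3* and a median of 290 bp over the list. The number of the 2672 listed regions at least as wide ran from 13 at *sls-2.2* to 27 at *sls-2.8* and 49 at *sls-2.3*. The extra width lay downstream: the intervals of *sls-2.2*, *sls-2.4* and *sls-2.1* ended 358, 341 and 324 bp past the 5′ end, beyond the gene of 110 bp, while that of *sls-2.3* ended at 113 bp and that of *sls-2.8* at 149 bp. In replicates 1 and 2 the width was 549 and 523 bp at *sls-2.2*, 524 and 376 bp at *sls-2.1*, and 368 and 359 bp at *sls-2.4*, against list medians of 280 and 284 bp. These intervals were thus wide in every list, but those of *sls-2.4* in both replicates and of *sls-2.1* in replicate 2 were narrower than in the thresholded list. At *sls-2.3* the width was 269 and 262 bp, below these medians, so its interval exceeded the list median in the thresholded list only. Each list median was also the commonest width of its list, and strong peaks could be narrower. *sls-2.14*, at rank 49, spanned 255 bp in the thresholded list. A width above the median was not confined to the members: *sls-2.9* spanned 311 bp in that list, near the 313 bp of *sls-2.3*. In replicates 1 and 2 *sls-2.9* spanned 246 and 288 bp. The other SL2 genes with a region had median widths of 216 bp in replicate 1 and 241 bp in replicate 2. Only *sls-2.2* had a second summit. It was at 156 bp from the 5′ end, 47 bp past the end of the gene, in the same interval, with a signal of 242 and rank 91. It was found again at 159 bp in replicate 1 (rank 177) and at 156 bp in replicate 2 (rank 90). In the thresholded list 4 intervals were listed with more than 1 summit, and this was 1 of them.

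**Figure D2:**
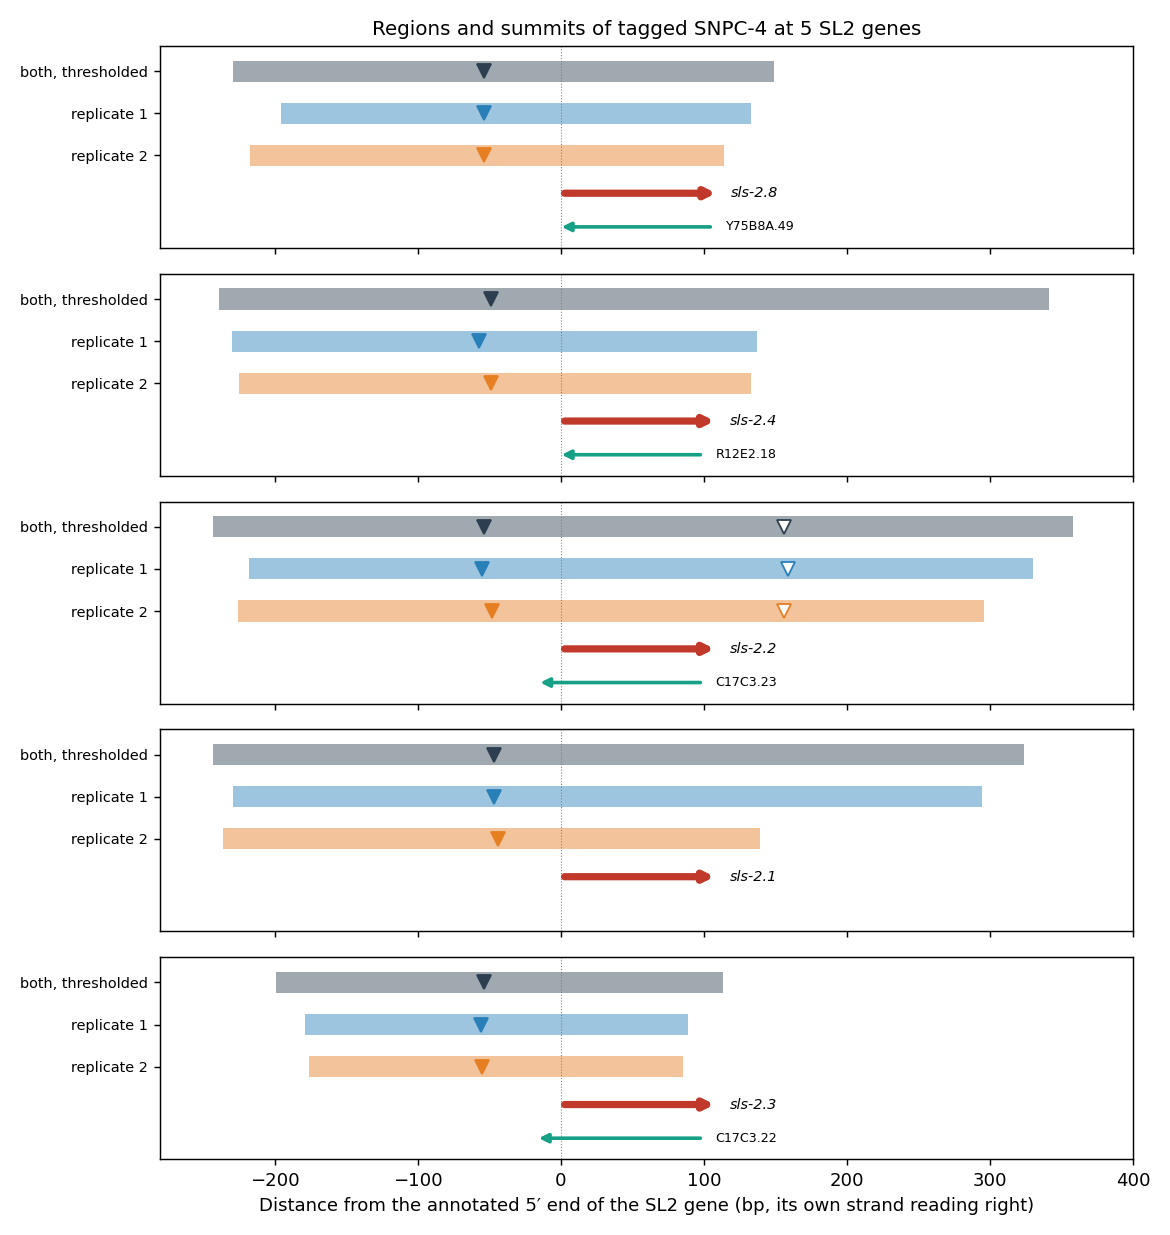
Intervals (bars) and summits (triangles; open for the second summit) of tagged SNPC-4 at the 5 SL2 genes, by distance from the 5′ end in bp, in the thresholded list and each replicate list. Red arrows are the SL2 genes and green arrows the noncoding RNA genes annotated on the other strand. All main summits lie from 57 to 44 bp upstream, and the bars at *sls-2.8*, *sls-2.4*, *sls-2.2* and *sls-2.1* reach past the gene in all 3 lists, farthest at *sls-2.2*.

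None of the members lay inside another gene, and no piRNA gene lay within 1000 bp of them. Some other SL2 genes lay inside a gene, as *sls-2.14* did, and others did not, as *sls-2.13*. The share over all genes was not counted for either trait, so neither can be called particular to the members. The annotation places noncoding RNA genes on the opposite strand of 4 members: *Y75B8A.49* at *sls-2.8*, *R12E2.18* at *sls-2.4*, *C17C3.23* at *sls-2.2* and *C17C3.22* at *sls-2.3*. They overlapped the SL2 gene by 101 bp, or 108 bp at *sls-2.8*. Among the other 14 SL2 genes, 1 had a noncoding RNA gene on the opposite strand, *F36H12.66* at *sls-2.19*. ChIP-seq does not tell strands apart. The main summits lay 149 to 161 bp downstream of the 5′ ends of these 4 antisense genes, whereas the second summit at *sls-2.2* lay at -56 bp from the 5′ end of *C17C3.23*. Downstream of the SL2 5′ ends, the snRNA element described below had no match on the opposite strand at any of the 19 genes. Its best score there at *sls-2.2* was -2.22, against a threshold of 9.71. Whether SNPC-4 acts at *C17C3.23* was not tested.

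*sls-2.2* and *sls-2.3* formed a pair on II, transcribed towards each other, with 456 bp between their 3′ ends. Their summits were separate peaks in every list, so each gene had its own. Upstream of *sls-2.3* the nearest gene was *ins-13*, which encodes an insulin-like peptide, 238 bp away, and upstream of *sls-2.2* it was *C17C3.24*, 1812 bp away. *sls-2.1* lay 244 bp downstream of *nep-25*, a gene of the neprilysin peptidase family on the same strand, and 279 bp from *ZK1248.17*. At *sls-2.8* the nearest genes were *tim-1*, which encodes a homologue of the Timeless protein, 300 bp upstream on the opposite strand, and *Y75B8A.23*, 84 bp downstream. The summit at *sls-2.8* was also at -247 bp from the 5′ end of *tim-1* and at -249 bp from that of *Y75B8A.23*, the protein-coding 5′ ends within 500 bp of any member summit. *sls-2.4* had *egg-5*, which encodes a pseudophosphatase of the egg-to-embryo transition, 616 bp upstream, and *R12E2.11* 122 bp downstream, both on the opposite strand. In the pooled list the strongest further region within 1500 bp was at *sls-2.1*, 841 bp from the 5′ end, with a signal of 18.4 at rank 4746, far below the members' own. Apart from the peaks of *sls-2.2* and *sls-2.3* themselves, no further thresholded peak had its summit from 500 to 1500 bp from the 5′ end of any member.

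The sequence divided the members in the same way as the leader. Over the transcribed gene, *sls-2.1*, *sls-2.2*, *sls-2.3* and *sls-2.4* were 90.9 to 97.3% identical to each other (6 pairs, median 94.1%) and 72.3 to 75.0% identical to *sls-2.8*. In the 100 bp upstream they were 57 to 79% identical to each other without gaps (median 64%), and 30 to 39% to *sls-2.8*. *sls-2.8* was nearer to genes outside the group: its upstream identity with the other 14 SL2 genes was 24 to 50% (median 41%), and its gene identity with them 68.4 to 83.2%. Outside the group, the 4 genes had at most 41% upstream identity with any SL2 gene. Close likeness was not confined to these 4 genes. Among the other 14 SL2 genes (91 pairs) upstream identity was 23 to 99% (median 44%), and gene identity 64.5 to 99.1% (median 76.3%).

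**Figure D3:**
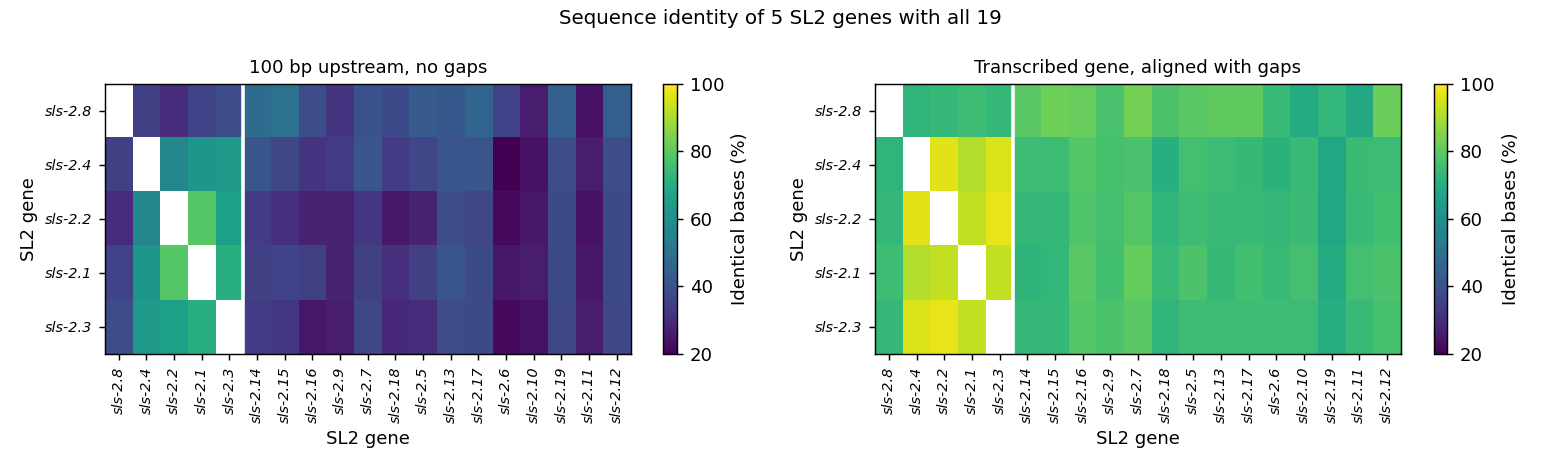
Percentage of identical bases between each strongly bound SL2 gene (rows) and all 19 SL2 genes (columns), in the 100 bp upstream without gaps (left) and over the aligned transcribed gene (right); the white line separates the 5 genes from the rest. *sls-2.1* to *sls-2.4* form a block, with upstream identities of 57 to 79%, and *sls-2.8* lies outside it. Pairs among the other SL2 genes, some of them more alike, are not drawn.

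The 4 genes shared an upstream run that the rest of the family lacked. Of the 100 aligned upstream bases 47 were the same in all 4, and the longest run was TCGCTTGCCTCGAAA, 15 bases from -65 to -51. The thresholded summits of *sls-2.2* and *sls-2.3* (-54 bp) lay in it, and those of *sls-2.4* (-49 bp) and *sls-2.1* (-47 bp) just downstream. It is printed from *sls-2.1* (chrII:5844800-5844814, plus strand). Searched on both strands, it was in the 100 bp upstream of these 4 genes and of no other gene among 46890 (0.00853%). The run was picked after the sequences were seen, so its absence elsewhere is a description.

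An element of 22 bp was learnt on the upstream sequence of 33 snRNA genes with a peak, with no spliced leader gene among them. A match was a score of at least 9.71 (a natural log ratio), which 1% of 10000 random windows of 200 bp reached. Of the 33 genes it was learnt on, 31 had a match. Among the members only *sls-2.8* had one in the 200 bp upstream, with a score of 20.2 from -63 to -42, and its summit lay at -1.5 bp from the middle of the element, on the upstream side. The best scores of the other 4 members ran from 2.07 at *sls-2.1* to 4.05 at *sls-2.2*, all on the opposite strand and at other positions. The element was thus matched at 1 of 5 members, and at 11 of the other 14 SL2 genes. The member count was 1 under every alternative tried, while that of the other SL2 genes was 6 with a score that 0.1% of random windows reached, 10 with the element learnt at the strongest peaks, and 11 and 13 with an element of 20 and 24 bp. Over all nuclear genes the share was 1.01%.

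Base by base, the 4 genes shared some letters with the element but scored low at its place. Their scores at positions -63 to -42 ran from -0.482 at *sls-2.3* to 1.81 at *sls-2.1*, against 20.2 at *sls-2.8*. A count of shared letters is not the score: *sls-2.9* had 11 of 22 and was a match, with 11.9. At positions -63 to -42 the most frequent base of the element stood at 13 of 22 positions in *sls-2.1* and at 12 of 22 in *sls-2.2*, *sls-2.3* and *sls-2.4*. Of these, 5 were among the first 11 positions in each gene, and 7 or 8 among the last 11. *sls-2.8* had it at 17 positions, 10 of them among the first 11, and *sls-2.14* at all 22. The median was 17 over the genes it was learnt on. Each of the 4 genes thus departed from the element more often in the first 11 positions, which the shared run of 15 bases covers, than in the last 11. A score below the threshold says only that these letters were not in this window, and whether the run takes the place of the element was not tested.

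**Figure D4:**
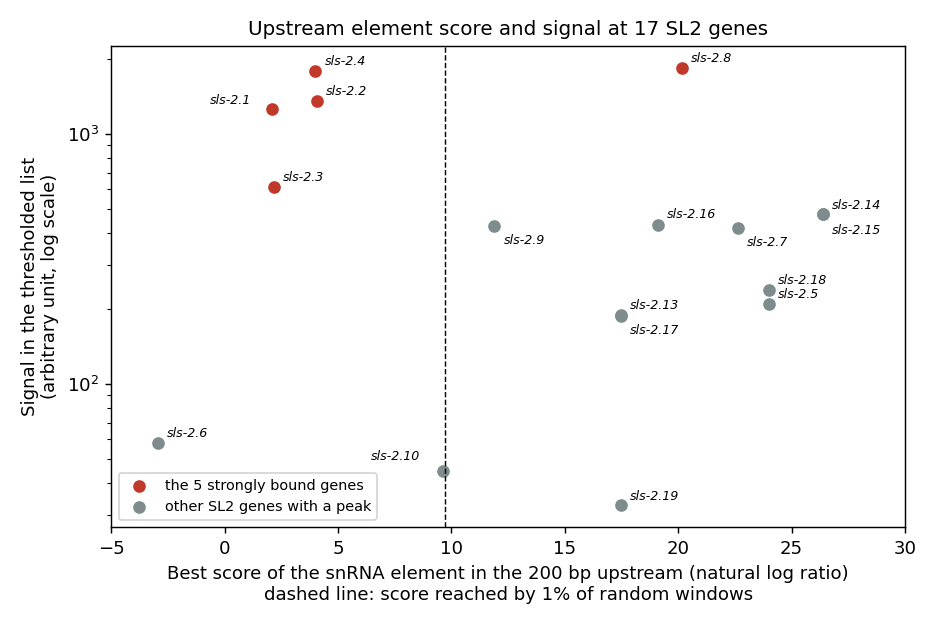
Best score of the snRNA element in the 200 bp upstream (natural log ratio) against signal in the thresholded list (log axis) for the 17 SL2 genes with a peak; the dashed line is the score of 9.71. *sls-2.8* lies to the right of the line, and *sls-2.1*, *sls-2.2*, *sls-2.3* and *sls-2.4* lie to its left with signals from 616 to 1786. *sls-2.15* is drawn at the signal of *sls-2.14*, not at the 242 of its own peak.

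Reads shared between near-identical genes can lower or misplace a signal. Of all words of 36 bases within 150 bp of the 5′ end, 100% occurred only there in the genome at *sls-2.8*, 93.2% at *sls-2.4*, 80.5% at *sls-2.2*, and 76.7% at *sls-2.1* and *sls-2.3*. At the other SL2 genes the share ran from 44.0 to 100% (median 93.8%). Members with the same share, *sls-2.1* and *sls-2.3*, had signals of 1255 and 616. The read length is not given in the sources used here, and the part of shared reads in the order of the members was not tested.

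For each member, the peak outside the spliced leader genes with the nearest ranks in both replicate lists was sought among 2457 peaks. For *sls-2.8* this was *F38E11.10*, an snRNA gene (ranks 9 and 7). For *sls-2.4* it was *F08G2.13*, a noncoding RNA gene (ranks 4 and 4), and for *sls-2.2* it was the snRNA gene *C52E4.8* (ranks 11 and 13). The snoRNA gene *F59C6.15* was nearest to *sls-2.1* (ranks 12 and 8), and the noncoding RNA gene *K07C10.6* to *sls-2.3* (ranks 40 and 35). All 5 were noncoding RNA genes, and their summits lay from -65 to -26 bp of the 5′ end. The share of noncoding RNA genes over all peaks of such ranks was not counted, so this cannot be called particular to the members. Their intervals were 317 to 410 bp wide in the thresholded list, narrower than those of *sls-2.1*, *sls-2.2* and *sls-2.4* in that list. The peaks nearest to *sls-2.8* and *sls-2.3* were wider than these members, with 397 against 379 bp and 317 against 313 bp.

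Other genes of trans-splicing had weaker peaks, or none in the list. Of the 12 SL1 genes 0 had a peak, and their share of unique words of 36 bases was 0 to 13.5% (median 0%). With so little unique sequence, the absence of a peak at the SL1 genes does not tell whether SNPC-4 was bound there. None of the 4 annotated genes for proteins of trans-splicing particles (*sna-1*, *sna-2*, *sna-3* and *sut-1*) had a thresholded peak. *sna-1*, *sna-2* and *sut-1* had pooled regions below the threshold, at ranks 3681, 3563 and 3423. Of the 7 genes for Sm core proteins 5 had a peak in the window. Those at *snr-1*, *snr-2*, *snr-3* and *snr-6* had signals of 38.3 to 57.1, with summits far from the 5′ end, at -390, -367, -210 and -248 bp. Whether these peaks belong to the Sm protein genes was not determined. The peak counted for *snr-4* (signal 1324, summit at -341 bp) was that of the snRNA gene *C52E4.8*, so the count of 5 includes a peak of another gene. Of the 8 SNAPc subunit genes only *snpc-3.4* had a peak (signal 49.6). The share over all nuclear genes was 6.15%, as given above.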

How the data were processed

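ChIP-seq regions of 2 biological replicates were used as deposited, on ce11, whose chromosome names and lengths were compared with RefSeq WBcel235. There were a thresholded list of 2672 peaks from both replicates, and pooled and single-replicate lists of 30000 regions each. The lists of 30000 regions were deposited as holding peaks and background, made with a control alignment. The signal value of each region, as deposited, is on the scale of its own list. The −log10 q-value, as deposited, was the same at all 2672 thresholded peaks and was not used for ranking. The aligner, peak caller and threshold were not given in the sources used here. All 2672 thresholded peaks were the strongest regions of the pooled list, so these lists are not separate evidence.

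A gene's peak was the strongest with its summit within 500 bp of the 5′ end. Identities came from global alignment (Biopython 1.88) or ungapped comparison. The element was fitted by expectation maximisation with 1 occurrence per gene, from -100 to -21 bp on the strand of the gene, in Python 3.11.15 and numpy 2.4.6, and the fit was tested on simulated data. No test was made, since there is 1 group and the members were chosen by signal. Named genes were the members, the next SL2 gene, nearest neighbours, genes with a 5′ end within 500 bp of a summit, the most alike peaks and the pathway lists. *sids-1* and *sids-2* of the lists had no match by name. The members and lists were chosen with earlier results of these data known.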

Additional observations from a re-analysis of the deposited data

How the results depend on the processing

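The members were the 5 strongest SL2 genes in the pooled list, in each replicate list, with windows of 250 and 1000 bp, by interval overlap and in the stronger 50% of the thresholded list. All these settings reuse the 2 replicates whose signal chose the members, and the thresholded peaks are the strongest of the pooled list. The outcome was thus largely fixed by the choice and is not support for it. The median summit position of -54 bp ranged from -55 to -49 bp with 1 replicate left out. It was -49 bp with a window of 1000 bp, where the peak of *sls-2.2* is the strongest in the window of *sls-2.3*, and 40.5 bp when the middle of the interval replaced the summit, because 3 intervals extend downstream. *sls-2.8* was the only member with a match to the element when it was learnt on the 12 snRNA genes at the 100 strongest peaks, made 20 or 24 bp wide, or held to a score that 0.1% of random windows reached. Of the other 14 SL2 genes 10, 11, 13 and 6 had a match under these settings in that order, against 11. Words of 100 bases were all unique at the 5 members. Median upstream identity over the 10 pairs of members was 44.5% over 200 bp, against 59.5% over 100 bp. With 2 replicates the gap between them is the only measure of spread, and without read counts the counting error is unknown.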
